A study of Mus musculus with 6 samples.

Results

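Kinesins are motor proteins that step along microtubules, and this account follows their genes through the perinatal development of corticothalamic projection neurons, which send axons from cortex to thalamus. The members were the genes whose only annotated symbol begins with Kif and a digit, which gave 37 of the 18193 genes on the arrays, measured by 99 of 34945 probe sets with 1 symbol. Of the probe sets of a gene, the one brightest on average across the 6 arrays stood for it. By their textbook roles, 11 members were placed among the spindle kinesins, 15 among the transport kinesins and 11 in neither class. A gene was tested if its mean over all arrays was outside the lowest 25% of genes, which 34 of the 37 members met. Kif14, Kif2b and Kif28 did not.

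The cells came from C57BL/6 mice with no other genotype or treatment, and every group carried green fluorescent microspheres that had been injected into the thalamus and taken up by axons ending there. Neurons labelled in this way were sorted from dissociated cortex. The 3 groups were E18 (injected at E17.5, cortex collected at E18.5), P3 (injected at P1, collected at P3) and P6 (injected at P4, collected at P6), with 2 arrays each. The label marks cells by what they took up, so a sorted fraction can hold other cells of the dissociated cortex, and the interval from injection to collection was shorter at E18 than at the other stages. The sources used here do not state that the arrays of a stage were separate animals or sorts, so the p-values measure the spread between these arrays, which may be technical. The levels are log2 RMA values (RMA is a background correction, normalization and summary of each probe set), so a difference of 1 is a 2-fold difference.

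In dividing cells a set of kinesins builds and works the spindle. Some slide its microtubules apart, some move or hold chromosomes, some shorten microtubule ends, and some assemble the midzone where the daughter cells separate. Neurons no longer divide and use other kinesins to carry vesicle precursors, mitochondria, receptors and cytoskeletal proteins from the cell body into axon and dendrites. Kinesin-1 (Kif5), kinesin-2 (Kif3) and kinesin-3 (Kif1) each have members made in most cells and members made mainly in neurons. A few spindle kinesins, Kif11, Kif15, Kif20b and Kif23 among them, are also known to act in young neurons.

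The arrays of a stage were unequally alike. The E18 arrays correlated at 0.998 over all probe sets, the P3 arrays at 0.961 and the P6 arrays at 0.976. Probe sets for 18S ribosomal RNA read 11.32 to 11.83 on 4 arrays but 14.22 on P3 replicate 2 and 13.92 on P6 replicate 1. The hybridization controls read 9.59 and 9.25 at E18, 11.72 and 11.59 at P3, then 13.01 and 9.85 at P6. Their level was lowest at E18, so as a covariate it cannot be fully told apart from stage. Actb, whose 3′ and 5′ probe sets tell of RNA quality, was brighter at its 3′ end by 0.56 and 0.58 at E18 and by 0.82 to 1.76 later. The labelled cell type was borne out in part. All 10 corticothalamic marker genes were higher at P3 and at P6 than at E18 (median change 2.28 in both comparisons), while proliferation and progenitor markers stood high at E18 alone, as given below.

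Most spindle kinesins were high at E18 and low from P3 on. Between E18 and P3, 8 of the 10 tested spindle kinesins fell, by between 8.09-fold and 37.8-fold, 1 rose and 1 did not pass the test (limma, Benjamini-Hochberg adjusted p below 0.05 over 13645 genes). Of all genes tested, 25.7% fell and 15.5% rose in this comparison. The median change of the 10 was -4.27 log2 units, against -0.13 for all genes tested. Kif18a, Kif20a and Kif20b reached the tested set only through their E18 level, so a fall was built into their inclusion. With no filter, all 11 members were tested and the same number, 8, were lower.

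**Figure D1:**
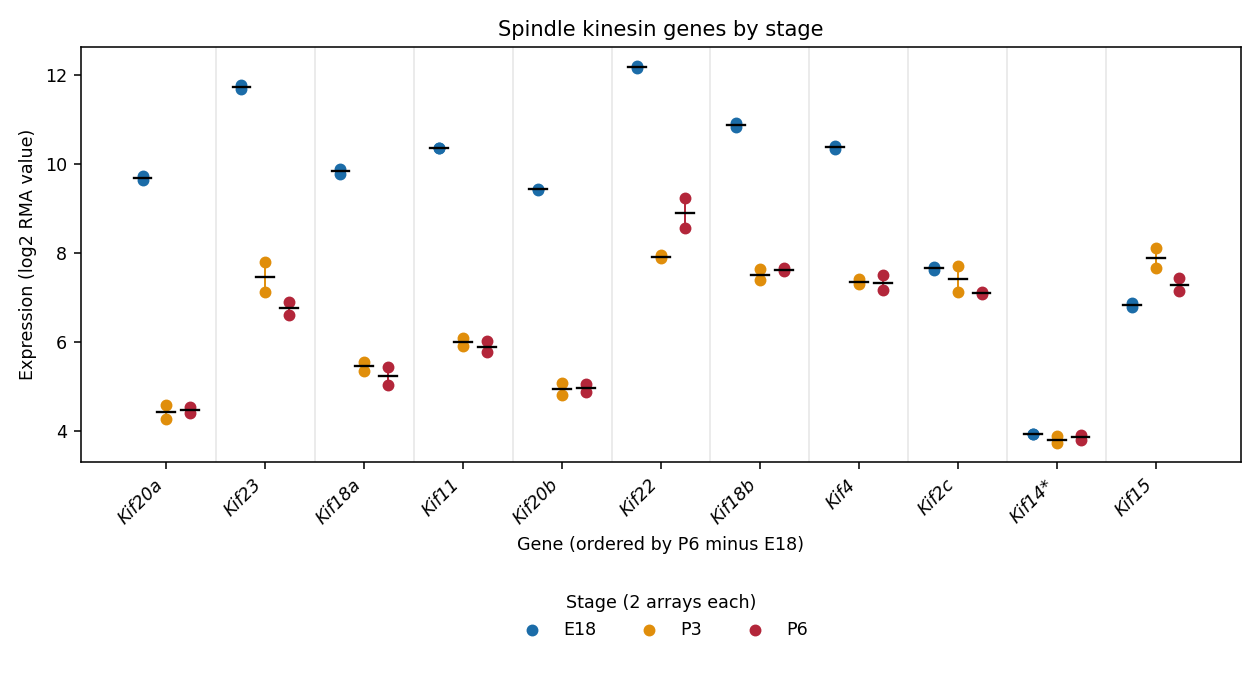
Log2 RMA values of the 11 spindle kinesin genes on each array (points), with stage means (black bars), genes ordered by P6 minus E18; the asterisk marks Kif14, which was too dim to be tested. In 8 genes both E18 arrays lie at least 2.84 log2 units above every P3 and P6 array, whereas Kif2c, Kif14 and Kif15 show no such drop.

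The motors that push spindle poles apart and set microtubule length came first among these. Kif11 encodes the kinesin-5 motor that slides antiparallel spindle microtubules. Its level was 10.36 and 10.36 on the E18 arrays, 5.90 and 6.10 at P3, then 5.77 and 6.01 at P6. The stages before and after birth did not overlap, and Kif11 fell 20.5-fold to P3 (limma adjusted p = 1.31e-05, SE 0.20 on the log2 scale, as are all SEs) and was 22.1-fold lower at P6 (SE 0.20, adjusted p = 1.4e-05). Kif18a, a kinesin-8 that damps the movement of chromosomes at the spindle equator, read 9.78 and 9.89 at E18, 5.56 and 5.35 at P3, then 5.03 and 5.45 at P6. It fell 20.8-fold to P3 (SE 0.21, adjusted p = 1.4e-05). Its relative Kif18b, which limits astral microtubule growth, read 10.84 and 10.92 at E18, 7.38 and 7.64 at P3, then 7.66 and 7.59 at P6, a fall of 10.3-fold to P3 (SE 0.23, adjusted p = 6.27e-05).

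Kinesins that act on chromosomes moved the same way. Kif22, a chromosome-bound kinesin-10, read 12.16 and 12.19 at E18, 7.95 and 7.88 at P3, then 8.55 and 9.22 at P6. It was 19.2-fold lower at P3 (SE 0.29, adjusted p = 5.92e-05) and 9.78-fold lower at P6 (SE 0.29, adjusted p = 0.000178). Both P6 arrays lay above both P3 arrays, a difference of 0.98 ± 0.29 (SE) that did not pass the test (limma adjusted p = 0.154). Its other probe sets did not repeat this size: P6 minus P3 was -0.22 on 1 and 0.45 on the other. Kif4, a chromosome-associated kinesin-4 that also works at the midzone, stood at 10.33 and 10.41 at E18, 7.30 and 7.40 at P3, then 7.50 and 7.16 at P6, and its fall of 8.09-fold to P3 (SE 0.23, adjusted p = 0.000101) was the smallest of the 8.

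The kinesin-6 genes, whose products bundle midzone microtubules and are needed for the daughter cells to separate, fell too, and Kif20a had the largest fall of the 10 tested spindle kinesins at P3 and at P6. Kif20a read 9.64 and 9.72 at E18, 4.60 and 4.28 at P3, then 4.41 and 4.54 at P6. Its postnatal values lay below the lower quartile of every array (5.15 to 5.40), a range in which background understates a fold, and the fall to P3 was 37.8-fold (SE 0.17, adjusted p = 6.42e-06). Kif20b read 9.41 and 9.44 at E18, 4.80 and 5.07 at P3, then 5.06 and 4.87 at P6, a fall of 22.5-fold (SE 0.17, adjusted p = 9.1e-06). Kif23, the motor of the centralspindlin complex, read 11.69 and 11.77 at E18, 7.13 and 7.79 at P3, then 6.91 and 6.61 at P6. It fell 19.3-fold to P3 (SE 0.29, adjusted p = 6.07e-05) and stood 31.4-fold below E18 at P6 (SE 0.29, adjusted p = 3.27e-05).

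Of the spindle kinesins, 3 did not follow. Kif15, a kinesin-12 that can share the work of Kif11 on the spindle, read 6.87 and 6.79 at E18, 7.66 and 8.11 at P3, then 7.44 and 7.14 at P6. Its groups did not overlap, and it rose 2.08-fold to P3 (SE 0.23, adjusted p = 0.0108). The rise was not called when the E18 arrays were averaged, without either of them, or with the level of the hybridization controls as a covariate (adjusted p up to 0.12), and at P6 the difference from E18 was 0.46 ± 0.23 (adjusted p = 0.168). Kif15 has 1 probe set on this array. Kif14, a cytokinesis motor of the kinesin-3 family, read between 3.72 and 3.93 on every array and was not tested. Kif2c, which takes tubulin off microtubule ends at centromeres, read 7.69 and 7.62 at E18, 7.11 and 7.70 at P3, then 7.08 and 7.11 at P6 on the probe set chosen, a difference of -0.25 ± 0.24 at P3 (adjusted p = 0.41).

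The result for Kif2c depended on the probe set. In a fit of all 26209 probe sets outside the lowest 25%, its 3 other probe sets were called lower at P3. On 1437611_x_at the E18 level of 10.77 and 10.88 gave way to 5.83 and 4.85 at P3, then 5.03 and 5.57 at P6, a change of -5.49 ± 0.35 (SE; limma adjusted p = 0.00013), and on 1449060_at it went from 9.18 and 9.24 to 5.84 and 5.83 and then 6.17 and 5.74, a change of -3.37 ± 0.21 (adjusted p = 0.000116). The rule took 1454221_a_at because its postnatal signal was higher, which raised its mean over the 6 arrays. In that fit 15 of 17 tested spindle probe sets fell to P3 and 1, that of Kif15, rose, where 21.2% of all probe sets tested fell and 12.9% rose. At P6 against E18 the counts were 15 lower and 0 higher, with 14.9% and 11.5% of all probe sets. All 3 probe sets each of Kif11 and Kif22 fell. Several of the probe sets that fell reached this fit only through their E18 level, so a fall was built into their inclusion. They include 1452315_at of Kif11, 1451128_s_at of Kif22, 1437611_x_at of Kif2c and those tested of Kif18a, Kif20a and Kif20b. Of the 7 spindle probe sets that were too dim to be tested, 1453748_a_at of Kif23 differed by -3.46 between E18 and P3.

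**Figure D2:**
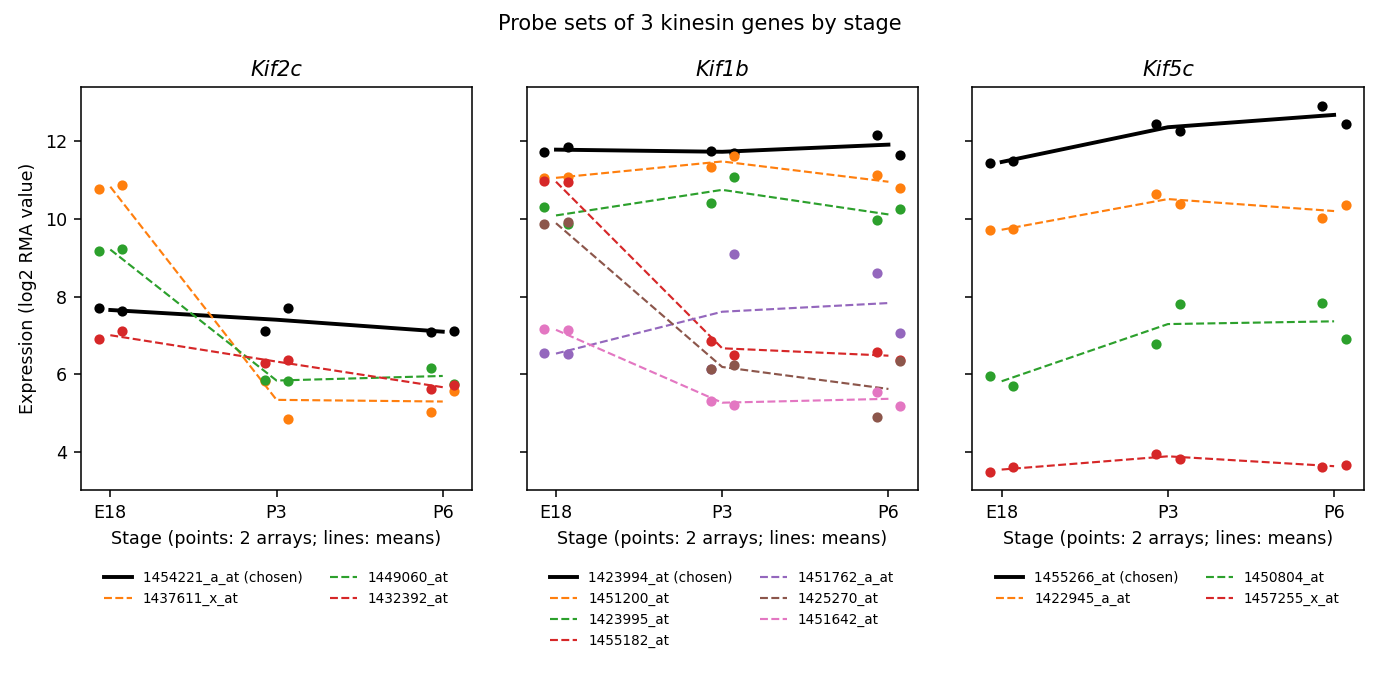
Log2 RMA values of every probe set of Kif2c, Kif1b and Kif5c by stage (points, 2 arrays a stage; lines join stage means; black, the probe set used for the gene). Of Kif2c and Kif1b, some probe sets drop after E18 while the chosen one stays nearly level; of Kif5c, the chosen probe set and 1422945_a_at both read higher at P3 than at E18.

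Promoters of genes that peak in mitosis often carry a cell cycle genes homology region (CHR), read here as TTTGAA or TTCGAA, near a CCAAT box, the pair bound by the MuvB and NF-Y complexes. Because the spindle kinesins moved together, their promoters were searched in RefSeq sequences of build GRCm38.p6, from 250 bases before to 50 bases after the transcription start, on both strands, so that TTCAAA counts as TTTGAA and ATTGG as CCAAT. A CHR lay in the window of 9 of the 10 spindle kinesins with an entry, and CCAAT in 6, which all also held a CHR. A CHR was found in 1 of 11 transport kinesins (Kif1a, in 1 of its 2 entries) and CCAAT in 3. Counted the same way by gene, 21.7% of all 27025 genes with an entry held a CHR, 41.1% CCAAT and 8.61% both (19.2%, 37.4% and 7.52% of all 32851 promoters), and no match of one overlapped a match of the other among the kinesins. The sequences below run 5′ to 3′ on the gene's strand from 80 bases before the start to 25 after it. They are the 5 spindle kinesins that fell and hold both motifs, then 2 neuronal transport kinesins with neither, and capitals mark each CHR and CCAAT match.

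Kif11 (chr19:37376302-37376406, plus strand): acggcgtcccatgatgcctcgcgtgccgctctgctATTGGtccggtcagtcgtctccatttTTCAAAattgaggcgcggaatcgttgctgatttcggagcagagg
Kif22 (chr7:127042396-127042500, minus strand): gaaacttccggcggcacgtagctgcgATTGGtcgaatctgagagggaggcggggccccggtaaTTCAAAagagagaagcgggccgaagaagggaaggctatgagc
Kif18b (chr11:102925100-102925204, minus strand): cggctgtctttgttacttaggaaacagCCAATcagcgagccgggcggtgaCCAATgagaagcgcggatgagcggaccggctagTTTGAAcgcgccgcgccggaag
Kif23 (chr9:61946775-61946879, minus strand): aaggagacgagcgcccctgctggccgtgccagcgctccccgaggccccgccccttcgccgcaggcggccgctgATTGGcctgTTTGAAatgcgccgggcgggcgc
Kif4 (chrX:100625985-100626089, plus strand): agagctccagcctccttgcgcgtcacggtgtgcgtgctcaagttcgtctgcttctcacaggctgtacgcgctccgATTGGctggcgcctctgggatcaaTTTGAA
Kif5c (chr2:49619206-49619310, plus strand): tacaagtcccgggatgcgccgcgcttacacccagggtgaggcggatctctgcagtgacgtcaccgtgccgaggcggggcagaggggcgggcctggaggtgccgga
Kif3c (chr12:3365052-3365156, plus strand): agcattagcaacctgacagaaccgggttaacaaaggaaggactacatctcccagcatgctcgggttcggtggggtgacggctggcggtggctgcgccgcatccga

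In the 5 spindle sequences the CHR began between 19 bases before and 19 bases after the start, and the CCAAT box nearest to it began 9 to 37 bases upstream of it. Of the 7 spindle kinesins that fell and have an entry, 6 held a CHR. Kif18a fell 20.8-fold with neither motif in its window, and Kif15 holds a CHR 19 bases before its start yet rose on the array. Kif2c, lower on 3 of its 4 probe sets, and Kif14, too dim to be tested, also hold a CHR, 103 and 228 bases before the start. Among the neither-class members, Kif24 and Kif26b, both lower after E18, hold a CHR 26 and 9 bases before their starts together with CCAAT, as does Kif27, which was not called.

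The kinesins' partners at the spindle fell beside them, as did markers of dividing cells. Of 14 tested partner genes, 13 were lower at P3 and 0 higher (median change -5.04). Of these, 5 (Anln, Aurkb, Birc5, Ect2 and Nusap1) reached the tested set only through their E18 level, so a fall was built into their inclusion. The same held for Kifc1 and Nde1 below, for 3 progenitor markers, and for Id3, Dlx1 and Olig2. The last 3 are astrocyte, interneuron and oligodendrocyte lineage markers, in that order. The share of all genes that fell was 25.7%, and of the 11 partner genes with a promoter entry 8 held a CHR. Nusap1, a microtubule-binding protein of the spindle, was 68.0-fold lower (adjusted p = 6.42e-06), Birc5, a subunit of the chromosomal passenger complex, 52.4-fold (8.31e-06), Anln, a scaffold of the cleavage furrow, 43.9-fold (8.31e-06) and the mitotic kinase gene Plk1 49.3-fold (9.1e-06). Tpx2, which targets Kif11 and Kif15 to the spindle, differed by 0.71 ± 0.30 (adjusted p = 0.0955) on its chosen probe set. Of 5 kinesins without a numbered Kif symbol, 2 with spindle roles fell and 1 did not: the kinetochore motor gene Cenpe was lower at P3 (a change of -4.21 ± 0.32 log2 units, adjusted p = 0.000103) and the minus-end spindle motor gene Kifc1 2.99-fold lower (adjusted p = 0.00126), while the spindle pole motor gene Stard9 differed by 0.16 ± 0.30 (adjusted p = 0.68). All 8 proliferation markers fell, their summed level going from 15.43 and 15.50 log2 units at E18 to between 10.77 and 11.49 on the later arrays. Of 11 progenitor markers 9 fell, with sums of 15.28 and 15.27 at E18 and 10.64 to 11.26 later, and the summed spindle kinesin level went from 13.87 and 13.93 to between 10.26 and 10.54. Some markers of other cells were lower too. At P3, where 25.7% of all genes fell, 6 of 7 microglial markers fell (sums of 12.95 and 12.93 at E18, 10.06 to 12.62 later), as did 4 of 8 astrocyte markers, with 1 higher (14.07 and 14.06, then 10.37 to 12.40). The interneuron, oligodendrocyte lineage and vascular lists each had 3 members lower at P3 and 0 higher, of 5, 5 and 6. At P6 against E18, where 16.9% of all genes fell, 0 of 7 microglial, 4 of 8 astrocyte, 3 of 5 interneuron, 1 of 5 oligodendrocyte lineage and 5 of 6 vascular markers were lower. In bulk RNA, fewer dividing cells in the sort and less of these transcripts per cell cannot be told apart, and the part of other cells in the fall was not tested.

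The transport kinesins did not move as 1 group. Between E18 and P3, 3 of 15 rose (Kif5a, Kif5c and Kif17) and 2 fell (Kif21a and Kif1c), beside 15.5% and 25.7% of all genes tested. The rises were thus near the share of all genes, and the falls below it. Their median change was -0.06 log2 units, against -0.13 for all genes. At P6 against E18, 4 rose (the same 3 and Kif3c) and 2 fell, beside 14.8% and 16.9% of all genes tested, and the median change was 0.13 against 0.08. These comparisons share the E18 arrays, the most alike pair of the study. With the E18 arrays averaged, Kif5a was the transport kinesin still called higher at P3, and Kif5a and Kif5c those at P6.

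**Figure D3:**
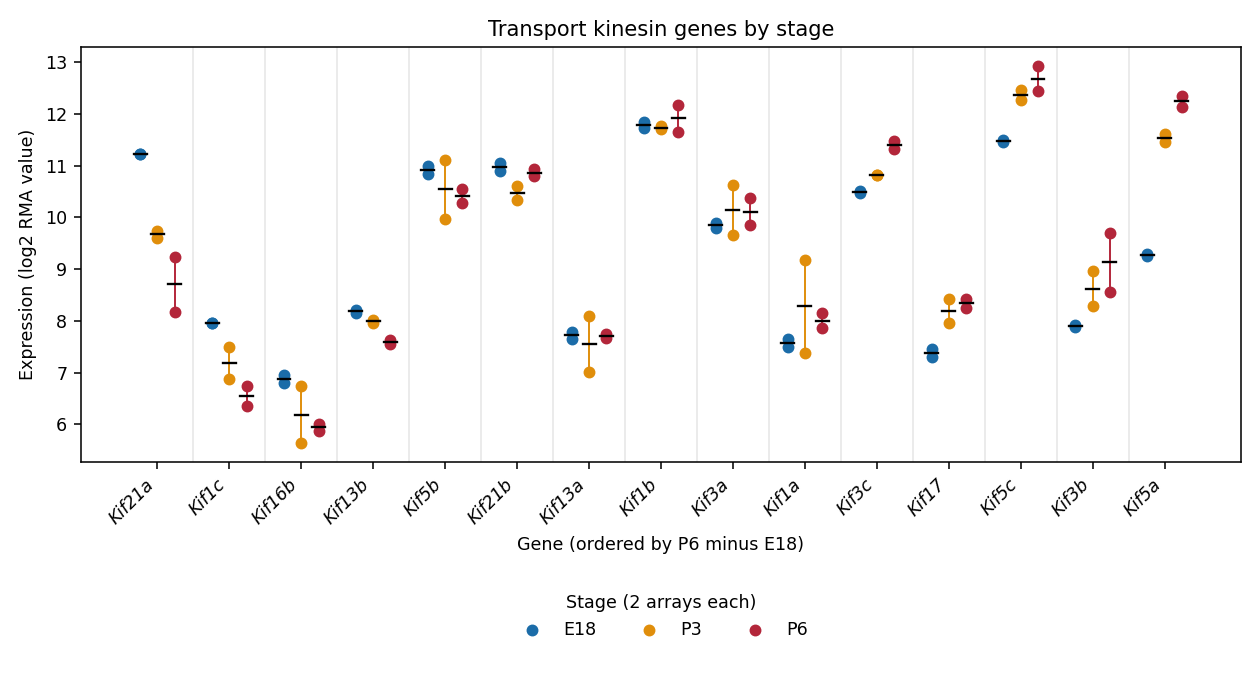
Log2 RMA values of the 15 transport kinesin genes on each array (points) with stage means (black bars), genes ordered by P6 minus E18. Kif5a reads higher at each later stage with no overlap, Kif21a and Kif1c read lower, and the P3 arrays of Kif1a, Kif5b, Kif13a and Kif16b lie more than 1 log2 unit apart.

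Kinesin-1, the motor of mitochondria, vesicles and neurofilament proteins in axons, held the clearest rise. Kif5a, its neuronal member, read 9.29 and 9.26 at E18, 11.45 and 11.60 at P3, then 12.34 and 12.13 at P6. No stage overlapped another, and Kif5a rose 4.77-fold from E18 to P3 (SE 0.22, limma adjusted p = 0.000288) and 7.80-fold from E18 to P6 (SE 0.22, adjusted p = 8.34e-05). Both calls held under each of 17 alternatives, where the differences ran from 1.36 to 2.65 at P3 and from 1.60 to 3.09 at P6. The other tested probe set of Kif5a, 1450249_s_at, was not called (1.69 ± 1.01 at P3 and 1.42 ± 1.01 at P6). Kif5c, also neuronal, read 11.45 and 11.48 at E18, 12.45 and 12.26 at P3, then 12.92 and 12.44 at P6, a rise of 1.86-fold to P3 (SE 0.22, adjusted p = 0.0162) and of 2.32-fold to P6 (SE 0.22, adjusted p = 0.00485). The P3 call was lost in 5 of 17 alternatives, those that averaged or left out an E18 array or added a technical covariate, with adjusted p up to 0.156. Of the Kif5c probe sets, 1422945_a_at was called higher at P3 but not at P6 (0.48 ± 0.24). Kif5b, the member made in most cells, read 10.83 and 11.00 at E18, 11.10 and 9.98 at P3, then 10.27 and 10.54 at P6. Its P3 arrays lay on both sides of E18, and the differences of -0.38 ± 0.37 at P3 and -0.51 ± 0.37 at P6 did not pass the test (adjusted p = 0.427 and 0.325). Without P3 replicate 1 the difference of Kif5b at P3 was -0.94.

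Light chains and adaptors link kinesin-1 to its loads. Klc1, the neuronal light chain gene, rose by 0.99 ± 0.31 to P3 (adjusted p = 0.0366) and by 3.00-fold to P6 (adjusted p = 0.00667). The P3 call was lost in 10 of 17 alternatives, among them those without either E18 array, and the P6 call in 3 of 17. With the mean of its probe sets the differences became -0.34 and 0.11 with neither called. Of 17 tested light chain and adaptor genes, 3 rose and 5 fell between E18 and P3, and 5 rose and 0 fell between E18 and P6 (median changes 0.01 and 0.54, against -0.13 and 0.08 for all genes). The P3 counts are near the 15.5% of all genes that rose and 25.7% that fell, and at P6 these shares were 14.8% and 16.9%. Mapk8ip2, a scaffold that binds light chains, was 3.07-fold higher at P6 (adjusted p = 0.00143). Clstn1, which tethers vesicles to kinesin-1, was 2.31-fold higher at P6 (adjusted p = 0.0146), a call lost in 5 of 17 alternatives, among them those without either E18 array or P6 replicate 1. Rhot2, which anchors the motor to mitochondria, fell 3.23-fold to P3 (adjusted p = 0.00583), and Klc4, another light chain gene, 2.69-fold (adjusted p = 0.00809), the latter lost in 4 of 17 alternatives, among them those without either E18 array. At P6 all 17 light chain and adaptor genes read higher than at P3 with none called, by a median of 0.70, where the median over all genes was also above 0, at 0.16.

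Kinesin-2 carries axonal and ciliary cargo as a motor pair with the adaptor Kifap3. Kif3c, its neuronal motor subunit, read 10.51 and 10.48 at E18, 10.82 and 10.81 at P3, then 11.47 and 11.33 at P6. No stage overlapped another, and the difference from E18 was 0.32 ± 0.21 at P3 (adjusted p = 0.244) and 1.87-fold at P6 (SE 0.21, adjusted p = 0.015), also called on its other probe set (0.96 ± 0.28, adjusted p = 0.0447). The P6 call was lost in 5 of 17 alternatives, among them those without P6 replicate 1 or without either E18 array. Kif3a, which pairs with Kif3b, read 9.79 and 9.89, 10.63 and 9.67, and 9.85 and 10.37 over the stages. Its groups overlapped and its chosen probe set was not called. However, limma over probe sets called 1436560_at higher at P3 (0.91 ± 0.27, adjusted p = 0.0393) and at P6 (0.97 ± 0.27, adjusted p = 0.038). Kif3b read 7.92 and 7.89 at E18, 8.96 and 8.29 at P3, then 9.71 and 8.55 at P6, higher after E18 on every array, at 1.22 ± 0.41 for P6 (adjusted p = 0.0583). Kifap3 itself rose 2.23-fold to P3 (adjusted p = 0.00999), a call lost in 4 of 17 alternatives, among them those without either E18 array. Kif17, a dendritic member of this family that carries NMDA receptor subunits, read 7.46 and 7.30 at E18, 7.95 and 8.42 at P3, then 8.42 and 8.25 at P6. It rose 1.75-fold to P3 (SE 0.24, adjusted p = 0.033) and 1.94-fold to P6 (SE 0.24, adjusted p = 0.0209), and these calls were lost in 8 and 6 of 17 alternatives, including those without either E18 array, without P3 replicate 2 (for P3) and without either P6 array (for P6).

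Kinesin-3 motors carry synaptic vesicle precursors. On the chosen probe sets 1 of their genes, Kif1c, was called, lower, and none was called higher. Kif1a, the neuronal member, read 7.50 and 7.64 at E18, 7.38 and 9.17 at P3, then 8.15 and 7.85 at P6. The high value was on P3 replicate 2, an array with high 18S signal, and the differences of 0.71 ± 0.52 at P3 and 0.43 ± 0.52 at P6 did not pass the test (adjusted p = 0.29 and 0.548). Without P3 replicate 1 the difference of Kif1a at P3 was 1.60, with P3 replicate 2 as the only P3 array. The other Kif1a probe set, 1450108_at, read 7.43 and 7.42 at E18, 6.99 and 7.67 at P3, then 8.16 and 8.24 at P6. It was not called at either stage (at P6, 0.78 ± 0.27, limma over probe sets, adjusted p = 0.0759). Kif1c, made in most tissues, read 7.96 and 7.96 at E18, 6.87 and 7.50 at P3, then 6.35 and 6.74 at P6. It fell 1.71-fold to P3 (SE 0.26, adjusted p = 0.0488), a call lost in 13 of 16 alternatives and turned to 0.11 with the mean of its probe sets, and 2.67-fold to P6 (SE 0.26, adjusted p = 0.00559), lost in 3 of 16, with P6 replicate 1 left out among them. With the mean of its probe sets the P6 difference of Kif1c was -0.26 and was not called. Its other probe sets were not called at P6 either (0.24, -0.06 and 0.21). The remaining kinesin-3 genes encode motors of endosomes and other vesicles. Kif13a read 7.66 and 7.79, 8.09 and 7.01, and 7.75 and 7.66 over the stages. This chosen probe set was not called, but 1447853_x_at was called higher at P3 (1.19 ± 0.33, limma over probe sets, adjusted p = 0.0339). It was not called at P6 against E18 (0.31 ± 0.33). Kif13b read 8.16 and 8.22, 8.02 and 7.96, and 7.64 and 7.56, and Kif16b 6.80 and 6.96, 6.74 and 5.63, and 5.88 and 6.01. Both had their lowest stage mean at P6, with no overlap between P6 and E18, and neither was called (-0.59 ± 0.20, adjusted p = 0.0606, and -0.94 ± 0.33, adjusted p = 0.0677).

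Kif1b, a kinesin-3 gene with several transcript forms, was called lower on 3 of its 7 probe sets and not called on the other 4. On the chosen one it read 11.72 and 11.85 at E18, 11.75 and 11.70 at P3, then 12.17 and 11.65 at P6, and 1451200_at and 1423995_at were likewise not called. On 1455182_at the E18 level of 10.96 and 10.95 gave way to 6.85 and 6.49 at P3, then 6.58 and 6.38 at P6, a change of -4.29 ± 0.23 (SE; limma over probe sets, adjusted p = 6.71e-05). On 1425270_at the change to P3 was -3.70 ± 0.43 (adjusted p = 0.00135) and on 1451642_at -1.88 ± 0.18 (adjusted p = 0.000601). By the mean over the 6 arrays, the gene's 3 brightest probe sets were not called and the 3 that fell were dimmer, but a fall itself lowers that mean. At E18 alone, 1455182_at read above 1423995_at (10.30 and 9.88). Of the 3 that fell, 1451642_at reached the fit only through its E18 level, so a fall was built into its inclusion. With the mean of all 7, limma called the gene lower at P3 (-1.11) and at P6 (-1.31). Which transcripts the probe sets match was not analysed here. Over all transport kinesins, 8 of 48 tested probe sets rose and 5 fell to P3, and 9 rose and 6 fell to P6, beside 12.9% and 21.2% of all probe sets tested at P3 and 11.5% and 14.9% at P6.

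The kinesin-4 transport genes did not rise. Kif21a, which carries axonal cargo and restrains microtubule growth at the cell edge, read 11.21 and 11.21 at E18, 9.74 and 9.60 at P3, then 8.17 and 9.24 at P6. It fell 2.92-fold to P3 (SE 0.36, adjusted p = 0.0139) and 5.69-fold to P6 (SE 0.36, adjusted p = 0.00178), on 2 of its 3 probe sets. The P6 call held under each alternative, with differences from -3.04 to -1.41. The P3 call was lost in 5 of 17, among them those without P3 replicate 2 or either E18 array, with adjusted p up to 0.138. Kif21b, its neuron-enriched relative, read 10.89 and 11.04, 10.60 and 10.34, and 10.93 and 10.79, with no difference called (-0.49 ± 0.23 at P3, adjusted p = 0.115). The rises beside which these values stand came with higher corticothalamic markers, whose summed level went from 11.84 and 11.92 at E18 to between 13.79 and 14.49 later, and with the 3′ excess of Actb given above. The part of cell makeup and RNA quality in the transport kinesin changes was not tested.

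**Figure D4:**
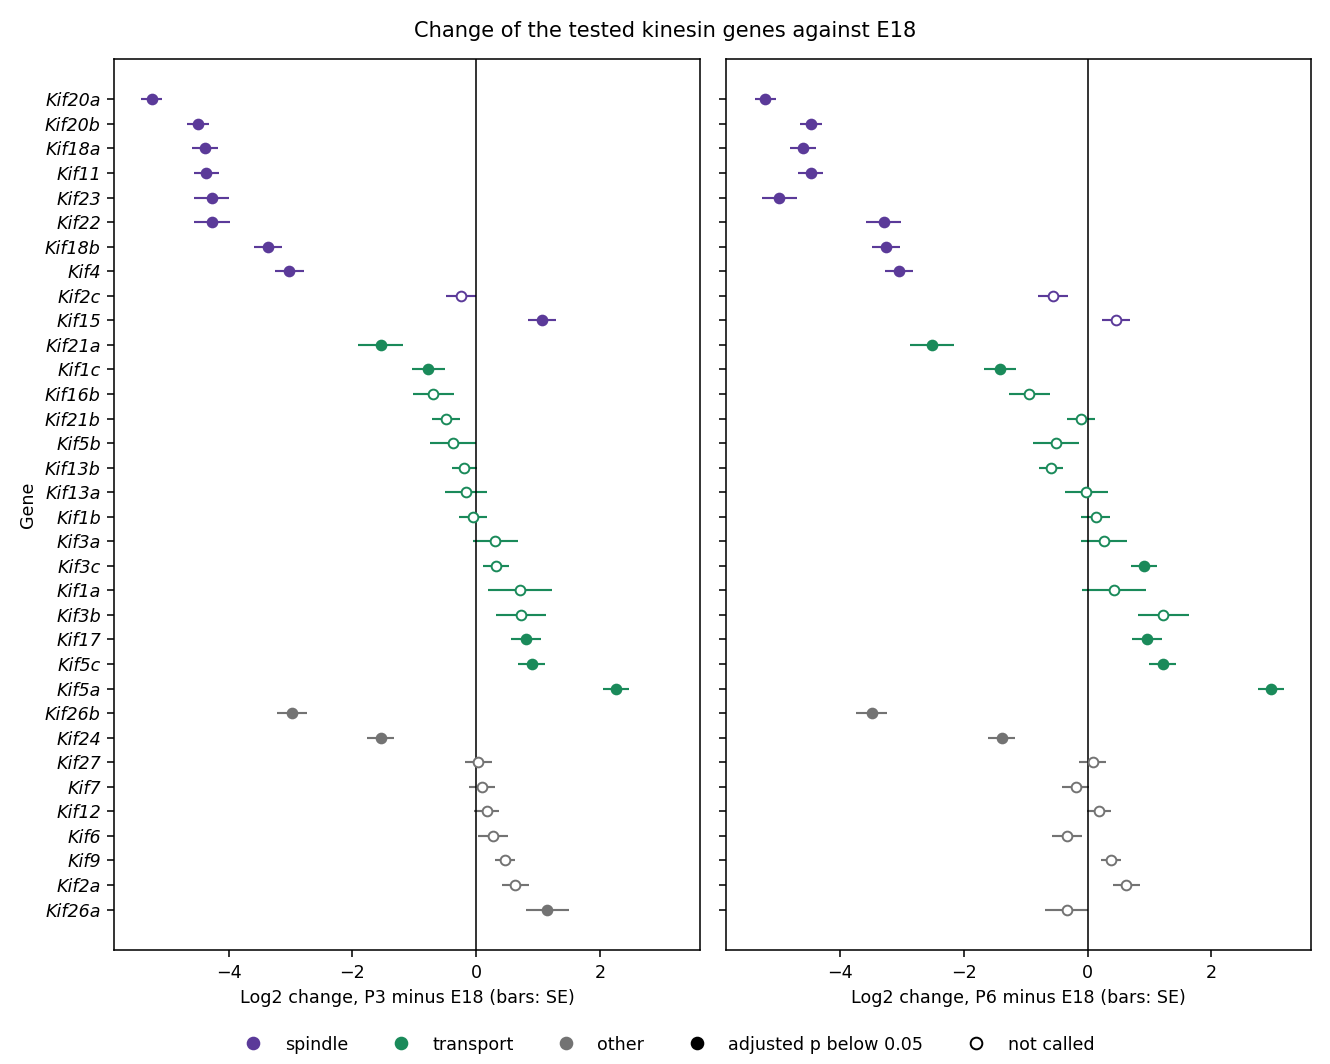
Log2 change (points) with its SE (bars) of the 34 tested kinesin genes, P3 minus E18 and P6 minus E18, by class; filled points had an adjusted p below 0.05. The spindle class runs from -5.24 (Kif20a) to 1.06 (Kif15) at P3, and the transport class from -1.54 (Kif21a) to 2.25 (Kif5a).

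Of the 11 members in neither class, 9 were tested. Kif26b, an atypical kinesin of cell polarity and adhesion, read 9.46 and 9.54 at E18, 6.20 and 6.83 at P3, then 6.04 and 5.98 at P6, and fell 7.91-fold to P3 (SE 0.24, adjusted p = 0.000143) and 11.2-fold to P6 (SE 0.24, adjusted p = 6.9e-05). Kif24, which controls centrioles and cilium formation, read 8.23 and 8.28, 6.65 and 6.77, and 7.13 and 6.61, a fall of 2.92-fold to P3 (SE 0.23, adjusted p = 0.00202). Kif26a, an atypical relative of Kif26b, showed a peak at P3, with 9.23 and 9.26 at E18, 10.83 and 9.95 at P3, then 9.16 and 8.65 at P6. Its rise of 1.15 ± 0.35 was called (adjusted p = 0.0356) but lost in 9 of 17 alternatives, and the later difference of -1.48 ± 0.35 was not called (adjusted p = 0.121). Kif2a, a microtubule depolymerase that prunes axon branches, read 10.16 and 10.22 at E18 and between 10.77 and 10.87 on the 4 later arrays. With differences of 0.63 ± 0.22 at P3 (adjusted p = 0.0507) and 0.62 ± 0.22 at P6 (adjusted p = 0.0643) it missed the threshold by little. Of its 5 probe sets, 1450052_at was called higher at P3 (0.88 ± 0.22, limma over probe sets, adjusted p = 0.0236). It was not called at P6 (0.46 ± 0.22). Kif6, Kif7, Kif9, Kif12 and Kif27 differed from E18 by at most 0.46 in either comparison with none called, and Kif2b and Kif28 read between 3.91 and 4.79 on every array.

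Between P3 and P6 no kinesin was called, nor any other gene (0 of 13645, 0% in either direction). At an unadjusted p below 0.05, 3 of 34 kinesins were higher at P6 and 6 lower, where 16.3% of all genes tested were higher and 3.46% lower by that measure. The 3 were Kif22, Kif3c (0.58 ± 0.21) and Kif5a (0.71 ± 0.22), and the 6 were Kif26a, Kif21a (-0.96 ± 0.36), Kif23 (-0.70 ± 0.29), Kif1c (-0.64 ± 0.26), Kif6 and Kif15. None of the 9 passed the adjustment. Leaving out P3 replicate 1 left P3 replicate 2 alone, an array with high ribosomal RNA signal (14.22), so P3 had no spread of its own. The median P6 minus P3 difference was then 0.41 for transport and -0.11 for spindle kinesins, against 0.15 and -0.07 with all arrays. Whether kinesins differed from other genes in that fit was not tested. Without either E18 array, which leaves both arrays of P3 and of P6, limma called 0 kinesins.

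Dynein, the motor that returns cargo to the cell body, was compared as the counterpart of the transport kinesins. Of 23 tested dynein, dynactin and adaptor genes, 5 rose and 3 fell between E18 and P3 (median change 0.15), and 5 rose and 1 fell between E18 and P6 (0.35). Of all genes tested, 15.5% rose and 25.7% fell at P3, and 14.8% rose and 16.9% fell at P6, so the rises were near the share of all genes. Dync1i1, the neuronal intermediate chain gene, rose 3.49-fold to P3 (adjusted p = 0.00238) and 4.24-fold to P6 (adjusted p = 0.00117), while Dync1h1, the heavy chain gene, fell 1.81-fold to P3 (adjusted p = 0.00919), a call lost in 4 of 17 alternatives, among them those without either E18 array. Nde1, a dynein regulator of dividing progenitors, was 20.5-fold lower at P3 (adjusted p = 1.25e-05), and its paralogue Ndel1 differed by -0.24 ± 0.30 (adjusted p = 0.531). Among the C-terminal kinesins, the neuronal Kifc2 was 4.33-fold higher at P6 (adjusted p = 0.00532) and Kifc3 2.76-fold (adjusted p = 0.0043), the latter lost in 4 of 17 alternatives, among them those without either E18 array.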

How the data were processed

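The deposited values, used unchanged, are log2 RMA levels of probe sets. RMA is named in the submitters' processing notes, while its version and whether the arrays were run together are not given in the sources used here. Gene symbols came from the platform's annotation, and none needed updating against RefSeq. R 4.3.3 with limma 3.58.1 fitted a mean for each stage to the 6 arrays (3 residual degrees of freedom, intensity trend). Genes in the lowest 25% of means were left out, 13645 were tested, and 2-sided p-values were adjusted by Benjamini-Hochberg, called below 0.05. Errors are SEs of the fit, and every stage mean has n = 2 arrays. The number of arrays limits the precision. Every kinesin could be named. Of other lists, up to 4 genes with the smallest p in a comparison were named, and a few others (such as Tpx2, Ndel1 and Stard9) after their values were seen. Members and lists were chosen with earlier results of these data known. Alternatives changed the filter, probe set rule, normalization, weights, covariates and arrays.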

Additional observations from a re-analysis of the deposited data

How the results depend on the processing

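The spindle counts against E18 stayed between 7 and 9 except where fewer genes were tested: with the lowest 50% of genes left out, 4 fell in each comparison with E18, and the spindle medians were -3.81 at P3 and -3.27 at P6, the transport median 0.30 at P3. With the mean of a gene's probe sets the spindle medians were -3.19 and -3.15 and the transport medians 0.30 and 0.58, Kif1c turned to 0.11 and Klc1 to -0.34 at P3, and Kif1b to -1.31 at P6. Quantile normalization gave spindle -4.01 and transport 0.25 at P3, transport -0.0886 for P6 minus P3, and 5 transport genes higher at P3. No filter gave a spindle median of -3.29 at P6. The hybridization control covariate gave -3.94 for spindle at P3, -0.0925 for transport at P6, and 1 transport gene higher at P3 and 2 at P6, and averaging the E18 arrays gave the same 1 and 2. The 18S covariate gave -4.09 for spindle and 1 transport gene higher, both at P3. Leaving out 1 array, 1 to 4 transport genes were higher at P3, 2 to 4 at P6 and 0 to 3 between P3 and P6, with 0 to 3 spindle genes lower there, and the transport median ran from -0.178 to 0.18 at P3 and from 0.0015 to 0.4132 for P6 minus P3. The 3s and the 0.4132 came without P3 replicate 1. Leaving out both arrays with high 18S, chosen after seeing the data and with no test, gave transport medians of 0.18 at P3 and -0.13 for P6 minus P3. The replicate numbers share only a number (correlations of same-numbered deviations -0.17, 0.06 and -0.24). With a replicate block 16 kinesins were called at P3 and 18 at P6, against 17 and 16. The share of all genes called is given for the main setting alone. The counts under the alternatives therefore do not show whether kinesins moved apart from other genes. Differences called under neither setting were not counted as turned. Depth has no meaning for arrays, and levels near 5 log2 units understate folds.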

Other observations

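A few kinesin probe sets were high on P3 replicate 2 and P6 replicate 1, the 2 arrays with high 18S signal, and on no others. Signal more than 1 log2 unit above all 4 other arrays was found on both for 3 of 99 kinesin probe sets and for 111 of 34945 with 1 symbol. They were 1421119_at of Kif21b, 1450249_s_at of Kif5a and 1451762_a_at of Kif1b, none of them the probe set chosen for its gene. This pattern was picked out after the values were seen, and its cause was not tested. On 1450249_s_at the values were 5.96 and 6.02 at E18, 6.29 and 9.07 at P3, then 8.58 and 6.25 at P6, while the probe set used for Kif5a differed little between the arrays of a stage.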
